A study of Homo sapiens with 28 samples.

Results

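Sense intron peaks of protein-coding genes are the N6-methyladenosine (m6A) peaks on chromatin-associated RNA (caRNA) that lie inside introns of messenger RNA precursors. m6A was mapped by methylated RNA immunoprecipitation (MeRIP-seq), in which ribosome-depleted RNA from the chromatin fraction is fragmented and pulled down with an anti-m6A antibody, and stretches where immunoprecipitated (IP) fragments pile up above their surroundings are listed as peaks. Peaks of the 14 IP libraries on chromosomes 1 to 22 and X were chosen when the summit, the highest base of the peak, lay in a protein-coding gene on the strand of the peak, in no annotated exon on that strand, and outside the promoter window from 1000 bases upstream to 100 bases downstream of any transcript start on either strand. 122652 of 495694 peaks met this rule, and 151975 peaks with their summit in a sense exon of a protein-coding gene served for comparison.

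The libraries came from 3 human cell lines. HepG2, a hepatoma line, was profiled as wild type (HepG2 WT, n = 2). K562, a line from chronic myelogenous leukaemia, was profiled as wild type (K562 WT, n = 2), with a non-targeting hairpin (K562 Control, n = 2) and with a short hairpin RNA against RBFOX2 (K562 RBFOX2 KD, n = 2). NB4, a line from acute promyelocytic leukaemia, was profiled with the non-targeting hairpin (NB4 Control, n = 3) and with the RBFOX2 hairpin (NB4 RBFOX2 KD, n = 3). The cells of both hairpin arms were stably transduced with lentivirus and selected with puromycin, so both carry an integrated hairpin, while WT cells do not. Nothing in the labels says whether libraries of a group came from separate cultures, so all p-values measure the spread between these libraries, which may be technical.

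m6A is added to RNA during transcription by the METTL3-METTL14 complex, mostly at adenosines within the consensus DRACH, where D is A, G or U, R is A or G and H is A, C or U. In mature mRNA it is best known near stop codons and in long exons. Introns are removed from the precursor by the spliceosome between a 5' donor and a 3' acceptor site and are usually degraded soon after, so their marks are seen mainly in nascent or chromatin-bound RNA. RBFOX2 is an RNA-binding protein known as a splicing regulator that binds UGCAUG in introns, and the series asks what it does at m6A sites of caRNA.

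Depth, recovered from the fold and p-value of each summit, ran from 10.8 to 32.9 M reads per library. The lines carried peaks in their own marker genes. HepG2 libraries had a peak in 3 to 6 of 8 hepatocyte markers, against 0 or 1 in K562 and 0 in NB4. K562 libraries had a peak in 7 or 8 of 8 erythroid and megakaryocyte markers, against 1 or 2 in HepG2 and 2 to 4 in NB4. NB4 libraries had a peak in 6 or 7 of 8 promyelocyte markers, against 1 to 3 in K562 and 1 in HepG2. ALB and AFP, which encode albumin and alpha-fetoprotein, had no peak in any library, HepG2 included. The peak lists do not measure the RNA level of RBFOX2, so they give no check of the knockdown. Within RBFOX2 itself, K562 Control had 2 and 1 intron peaks and K562 RBFOX2 KD also 2 and 1, NB4 Control had 1, 1 and 2 and NB4 RBFOX2 KD had 2, 1 and 1. The 2 K562 Control libraries stood apart from each other in how often intron peaks reached an exon, 14.3% in Control 1 and 23.3% in Control 2, so results that rest on distance to exons are given with that spread.

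The sequences below show what intron peaks look like at their summit. Each is 101 bases of hg38 centred on the summit of the strongest peak of a region, on the strand of the peak, written as DNA from 5' to 3'. Overlapping peaks of all libraries on a strand were merged into regions, and a region counts as an intron region when most of its summits are sense intron summits. Capitals mark matches to DRACH. The first 6 are the intron regions found in all 14 libraries with the highest mean rank of -log10 q. They are shown as the most general sites, though in the BRD9 region 14 of 26 summits were sense intron summits.
RABL6 intron 5 (chr9:136831291-136831391, plus strand): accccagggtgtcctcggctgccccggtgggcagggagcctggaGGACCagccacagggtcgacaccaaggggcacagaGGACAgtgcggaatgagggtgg
NCKIPSD intron 5 (chr3:48680998-48681098, minus strand): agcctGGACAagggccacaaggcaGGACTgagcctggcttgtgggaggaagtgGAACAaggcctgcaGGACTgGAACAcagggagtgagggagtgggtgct
MIER2 intron 1 (chr19:343885-343985, minus strand): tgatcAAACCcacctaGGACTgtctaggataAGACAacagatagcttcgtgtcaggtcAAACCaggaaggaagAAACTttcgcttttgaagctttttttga
BRD9 intron 2 of a transcript with 2 introns (chr5:863283-863383, minus strand): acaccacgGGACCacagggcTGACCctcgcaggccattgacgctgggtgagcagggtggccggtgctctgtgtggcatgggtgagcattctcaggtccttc
TFDP1 intron 2 (chr13:113599978-113600078, plus strand): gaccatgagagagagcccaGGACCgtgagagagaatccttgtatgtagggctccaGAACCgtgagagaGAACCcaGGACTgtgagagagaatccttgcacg
ZC3H18 intron 3 (chr16:88589621-88589721, plus strand): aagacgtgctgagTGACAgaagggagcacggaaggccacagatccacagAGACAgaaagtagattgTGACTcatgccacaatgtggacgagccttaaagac

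All 6 windows held at least 2 DRACH matches, and those of NCKIPSD, MIER2 and TFDP1 held the core form GGACU, written GGACT here. Over all intron peaks a window of this length held a DRACH match in 85.8 to 97.1% of summits per library, against 82.3 to 88.8% of windows 300 bases to either side, so DRACH itself is common in any such window. GGACU separated summits from flanks further, with 13.8 to 22.3% at summits and 7.54 to 8.56% in flanks. A match is a string in the window and not a mapped site.

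The next set shows regions found in every library of a line and in no library of the other lines, with examples from the 3 highest by rank for each line. For HepG2 these are 2 sites in PTPRN2, a receptor-type phosphatase of dense-core vesicles.
PTPRN2 intron 1 (chr7:158524838-158524938, minus strand): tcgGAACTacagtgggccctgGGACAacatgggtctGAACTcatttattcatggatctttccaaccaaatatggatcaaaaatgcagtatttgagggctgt
PTPRN2 intron 11 (chr7:158075340-158075440, minus strand): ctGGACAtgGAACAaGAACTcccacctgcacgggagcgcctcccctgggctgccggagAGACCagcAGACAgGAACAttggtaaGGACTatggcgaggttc
For K562 the example is ABO, the blood group glycosyltransferase.
ABO intron 7 (chr9:133256838-133256938, minus strand): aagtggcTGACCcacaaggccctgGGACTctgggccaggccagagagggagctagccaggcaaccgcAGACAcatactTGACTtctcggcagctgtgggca
For NB4 the examples are CCDC88C, a scaffold of Wnt signalling, and HSH2D, an adaptor of haematopoietic cells.
CCDC88C intron 23 (chr14:91293433-91293533, minus strand): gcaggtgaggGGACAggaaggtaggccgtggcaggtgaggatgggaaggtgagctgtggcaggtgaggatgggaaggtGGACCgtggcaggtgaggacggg
HSH2D intron 1 (chr19:16143819-16143919, plus strand): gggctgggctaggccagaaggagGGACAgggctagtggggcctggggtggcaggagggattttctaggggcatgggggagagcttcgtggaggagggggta

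The CCDC88C window is a tandem repeat with 2 DRACH matches. Such repeats were counted across all intron peaks and are taken up below with the comparison of lines.

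Intron peaks made up 20.5 and 22.2% of all peaks in HepG2 WT, 22.6 and 22.3% in K562 WT, 23.0 and 23.1% in K562 Control, and 23.3 and 23.4% in K562 RBFOX2 KD. In NB4 they made up 21.4, 23.1 and 26.8% in Control and 31.4, 31.3 and 29.3% in RBFOX2 KD. The lists of HepG2 and K562 thus held a like share whatever the hairpin, and the NB4 RBFOX2 KD libraries lay above all 11 others. In number, intron peaks ran from 4635 in HepG2 WT 1 to 12465 in NB4 RBFOX2 KD 1. Per library they fell in 2074 to 4035 protein-coding genes, with 2.23 to 3.09 peaks per gene, and 46.0 to 56.3% of these host genes had a single intron peak. The fullest gene of a library held 33 to 78 intron peaks, and the top 1% of host genes held 8.07 to 9.63% of them. Between 30.4 and 38.8% of host genes had no sense exon peak in the same library. 5.00% of intron peaks lay within 2 or more protein-coding genes of the same strand, where the host cannot be told apart.

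**Figure D1:**
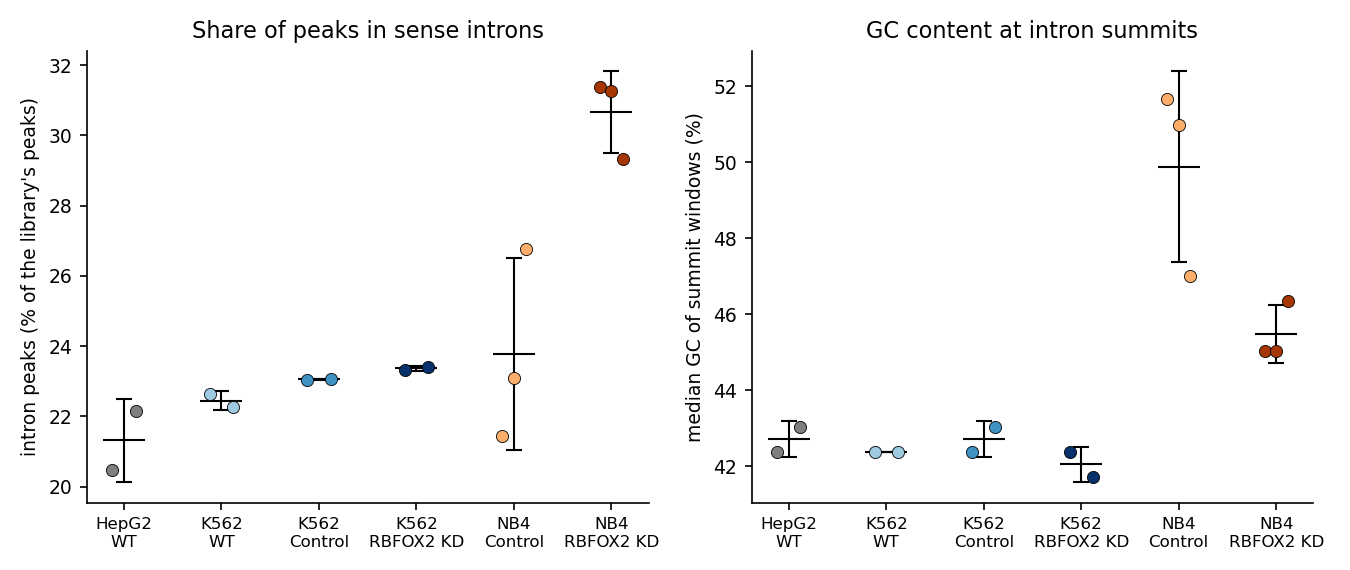
Left, the share of each library's peaks (%) that are sense intron peaks, and right, the median GC content (%) of the 151 bases around intron summits, by group. Points are libraries, and bars show the group mean with the SD. NB4 RBFOX2 KD lies at 29.3 to 31.4% and all other libraries at 20.5 to 26.8%, while GC is 41.7 to 43.0% outside NB4, 47.0 to 51.7% in NB4 Control and 45.0 to 46.4% in NB4 RBFOX2 KD.

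Within every library intron peaks were weaker, narrower and poorer in GC than sense exon peaks. Their median rank by -log10 q within the list averaged percentile 41.8, against 61.7 for exon peaks, and it was lower in 14 of 14 libraries (exact sign-flip permutation test over libraries, two-sided, adjusted p = 0.000293). The median fold over background was 5.27 against 6.88 and the median width 257 against 353 bases, each lower in 14 of 14 libraries. GC content of the summit window was 44.7 against 51.7%, again lower in 14 of 14. The excess of GGACU at summits over flanks, in percentage points of windows of 151 bases, was 11.9 for intron and 13.9 for exon peaks and lower in 10 of 14 libraries (adjusted exact p = 0.0286). The order was reversed in every K562 library with a hairpin. There it was 18.2 and 14.05 against 16.4 and 11.4 in Control, and 18.0 and 18.1 against 15.8 and 16.3 in RBFOX2 KD. UGCAUG, the motif RBFOX2 binds, had an excess of 0.383 at intron and -0.457 at exon summits, higher at intron summits in 13 of 14 libraries. Flanks of exon summits were not limited to exons. As a plain share of windows UGCAUG was at 3.93 against 3.47%, higher in 11 of 14 libraries. The intron excess was below 0 in NB4 Control 3 (-0.218), NB4 RBFOX2 KD 1 (-0.261) and NB4 RBFOX2 KD 2 (-0.081). AGAUG did not separate the classes over the 14 libraries, with an excess of 4.51 against 4.41 (exact permutation p = 0.663). It was higher at intron summits in every NB4 library, as at 6.48 against 5.08 in NB4 Control 2. In K562 it was lower in every library but Control 1, as at 3.08 against 3.90 in K562 WT 1. The HepG2 libraries were split. The plain share of windows with AGAUG was 24.7 against 23.1% (adjusted exact permutation p = 0.0245). Libraries of a line share their cells, so the 14 libraries are not 14 independent sources.

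The typical host intron was long. Its median length per library was 14308.5 to 19803 bases, and the median distance from summit to the nearest exon was 1949 to 3111 bases. Introns of 5 to 20 kb held 32.5 to 36.2% of the peaks in canonical introns, those of 20 to 100 kb 30.0 to 35.0%, those over 100 kb 9.02 to 14.2%, and those under 1 kb 3.04 to 7.11%. Long introns hold many peaks because they hold many bases. Per Mb of bases that the rule allows in the canonical introns of host genes, introns under 1 kb had the highest density in the summary over libraries, 59.0 to 111.5 peaks, and introns over 100 kb the lowest, 11.8 to 23.4 peaks.

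Where intron peaks lay along the intron was uneven, and the sharpest feature was at the acceptor. Of all intron summits, 6.31 to 15.5% per library fell in the last 100 bases before the acceptor, and 0.216 to 0.730% in the next 100 bases further in. In density this was 159.2 to 387.2 peaks per Mb in the last 100 bases against 11.9 to 25.7 between 100 and 500 bases from the acceptor, higher in 14 of 14 libraries (exact sign-flip permutation test, adjusted p = 0.000157). The summits in these last 100 bases lay a median of 6 to 20 bases from the exon, and 98.7 to 99.7% of the peaks they belong to reached into an exon, against 3.97 to 9.31% of the other intron peaks. They were narrower, with medians of 163 to 189 against 210 to 337 bases, and fewer held GGACU, 10.4 to 16.3% against 19.6 to 30.4% (both lower in 14 of 14 libraries, adjusted exact p = 0.000157). Their median rank by -log10 q was higher in 11 of 14 libraries, by a mean of 8.17 percentiles over the 14 (adjusted exact p = 0.00137). Peaks were called with reads extended to 150 bases along the genome, and how far this extension carries signal of an exon across the acceptor was not tested. These peaks thus spanned the border of intron and exon.

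The step on the donor side was smaller. The first 100 bases after the donor held 38.7 to 64.8 peaks per Mb and the bases from 100 to 500 held 31.9 to 53.7. The first 100 were denser in 14 of 14 libraries, by 1.03 to 1.57 times (adjusted exact p = 0.000157). At the acceptor the matching ratio was 8.04 to 22.7. Both donor stretches exceeded the interior of introns, at 18.2 to 33.0 peaks per Mb. The stretch from 100 to 500 bases was denser than the interior in 14 of 14 libraries, by 1.23 to 2.65 times (adjusted exact p = 0.000157). The matching stretch before the acceptor was not: it was above the interior in 4 of 14 libraries, with ratios of 0.649 to 1.25 (adjusted exact p = 0.0361). Outside the exon border, the density of intron peaks was therefore higher on the donor than on the acceptor side in 14 of 14 libraries, by 1.76 to 3.06 times. The border of 100 bases was chosen after the profile had been seen.

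First introns held 22.8 to 26.0% of intron peaks per library. In canonical transcripts they held 21.1 to 24.7% of the peaks and 21.2 to 22.7% of the allowed bases of host genes, so first introns held about the share their length gives. By density they exceeded inner introns from the fourth on by 1.01 to 1.20 times in 14 of 14 libraries (exact sign-flip permutation test, adjusted p = 0.000244). Without the last 100 bases before acceptors they did so in 11 of 14 libraries, by 0.974 to 1.15 times (adjusted exact p = 0.00179). Last introns had the highest density of all positions, 28.4 to 41.6 peaks per Mb against 18.3 to 33.4 in inner introns, and the ratio was 1.25 to 1.56 with and 1.22 to 1.44 without the acceptor border, higher in 14 of 14 libraries in both. The second intron exceeded inner introns in 13 of 14 libraries with the border and in 8 of 14 without it (adjusted exact p = 0.860). The densities by intron length changed more: without the acceptor border, introns under 1 kb held 22.2 to 48.8 peaks per Mb, introns of 5 to 20 kb 28.8 to 44.8 and introns over 100 kb 11.8 to 23.2.

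**Figure D2:**
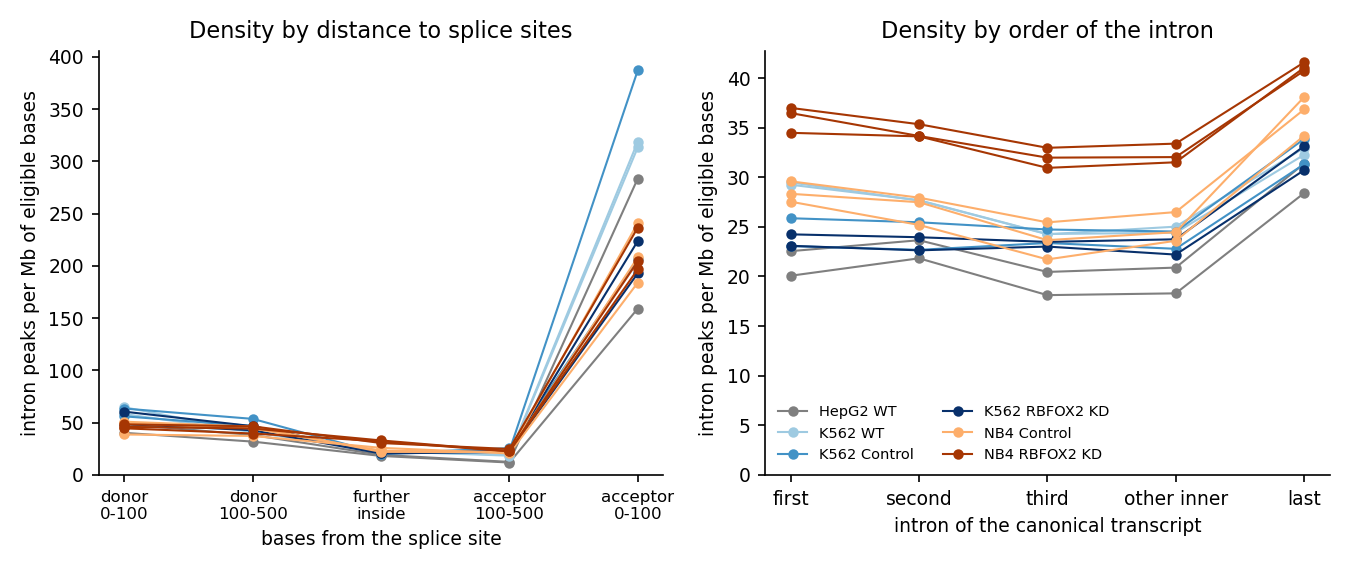
Intron peaks per Mb of bases allowed by the rule in canonical introns of host genes, left by distance to the splice sites and right by order of the intron. Each line is a library in the colour of its group. The last 100 bases before the acceptor reach 159.2 to 387.2 peaks per Mb, all other places lie at or below 64.8, and last introns exceed inner introns in every library.

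With RBFOX2 depletion the share of intron peaks was higher in NB4 and close to Control in K562. In NB4 it went from a mean of 23.8 ± 2.73% (SD, n = 3) in NB4 Control to 30.7 ± 1.16% (n = 3) in NB4 RBFOX2 KD, and the groups did not overlap. This difference of 6.89 percentage points had an exact permutation p of 0.1, the smallest that 3 against 3 libraries allow. In K562 it went from 23.1 ± 0.02% to 23.4 ± 0.07% (n = 2 each), a difference of 0.314 percentage points with an exact p of 0.333, the smallest that 2 against 2 allow. With both lines in a single test stratified by line, the difference was 3.60 percentage points and each of the 5 KD libraries lay above the mean of the Control libraries of its line (exact permutation p = 0.0167, the smallest this design allows). Tested against each other, the changes of the 2 lines differed by -6.58 percentage points for K562 minus NB4 (exact p = 0.1, adjusted p = 0.3).

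Other values moved with the NB4 result. The recovered depth of NB4 RBFOX2 KD libraries was 16.8 to 21.9 M reads, against 10.8 to 17.2 M reads in NB4 Control. Median GC content at intron summits was 51.7, 51.0 and 47.0% in NB4 Control and 45.0, 45.0 and 46.4% in NB4 RBFOX2 KD. When shares were standardised to the same mix of GC classes, the difference was 5.20 percentage points in NB4 and 2.54 over both lines (exact p = 0.0833), and in K562 it turned to -0.116. Without NB4 RBFOX2 KD 1 or 2 the test over both lines gave an exact permutation p of 0.0667. With libraries matched for depth, it kept an exact permutation p of 0.0167 over both lines. The part of depth and GC in the result was not tested further. The share can also move because other classes move: over both lines the share of sense exon peaks fell by 2.70 and that of promoter peaks by 1.94 percentage points (exact p = 0.0167 each, and 0.0625 with a replicate block, the smallest its sign flips allow).

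In number, intron peaks went from 6328, 7371 and 8942 in NB4 Control to 12465, 11767 and 10762 in NB4 RBFOX2 KD, a difference of 0.64 on the log2 scale (exact p = 0.1), and all 3 KD libraries lay above all Control libraries. With lists cut to equal size the difference was 0.31. In K562 the counts were 8489 and 8876 in Control and 8996 and 8333 in KD, with a log2 difference of -0.004. Over both lines the difference of 0.32 did not pass the test (exact p = 0.0667).

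Where the peaks lay within introns was compared in 10 properties. None of the 10 passed over both lines after adjustment. The nearest were the median length of the host intron (log2 difference 0.22), the median distance to the nearest exon (0.33) and the median rank (1.31 percentiles), each with an exact p of 0.0333 and an adjusted p of 0.111, and each higher in all 5 KD libraries than the Control mean. In NB4 the median distance to the nearest exon was 1988.5, 2017 and 2539.5 bases in Control and 2814, 2838 and 2642.5 in KD. In K562 it was 2869 and 1949 bases in Control and 2794.5 and 3111 in KD, and these groups overlapped. The share of first introns differed by -0.306 percentage points over both lines (adjusted exact p = 0.3), with 22.9 and 23.4% in K562 Control, 22.8 and 22.9% in K562 RBFOX2 KD, 25.4, 24.8 and 24.6% in NB4 Control and 24.6, 24.9 and 24.4% in NB4 RBFOX2 KD. The UGCAUG excess differed by 0.054 percentage points (adjusted exact p = 0.979).

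Individual regions were followed by presence. 86263 merged regions included 25478 intron regions and 18251 sense exon regions. A region was called gained when every KD library of a line and no Control library had a peak in it, and lost in the reverse case. In K562, 247 of 10908 intron regions with a peak in these libraries were gained (2.26%), against 1.73% of all regions, and 166 were lost (1.52%), against 1.71% of all regions. In NB4, 852 of 15991 intron regions were gained (5.33%), against 3.53% of all regions, and 47 were lost (0.294%), against 0.619% of all regions. With equal list size 384 were gained in NB4 (2.998%, against 1.82% of all regions) and 94 lost (0.734%, against 1.53%). Sense exon regions gave 0.666% gained and 1.57% lost in K562, and 1.68% gained and 0.637% lost in NB4. Gained intron regions thus lay above the share of all regions in both lines, and no test was made of single regions. Counts of this kind depend on each library: with 1 library fewer, for which fewer libraries have to match, gained regions numbered 520 to 1037 in K562 and 985 to 1688 in NB4, and lost regions 285 to 1559 and 69 to 122. Of these, 1559 lost regions were counted without K562 Control 1 and 285 without K562 RBFOX2 KD 2. 6 regions were gained in both lines, which is 2.43% of the K562 list and 0.704% of the NB4 list.

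**Figure D3:**
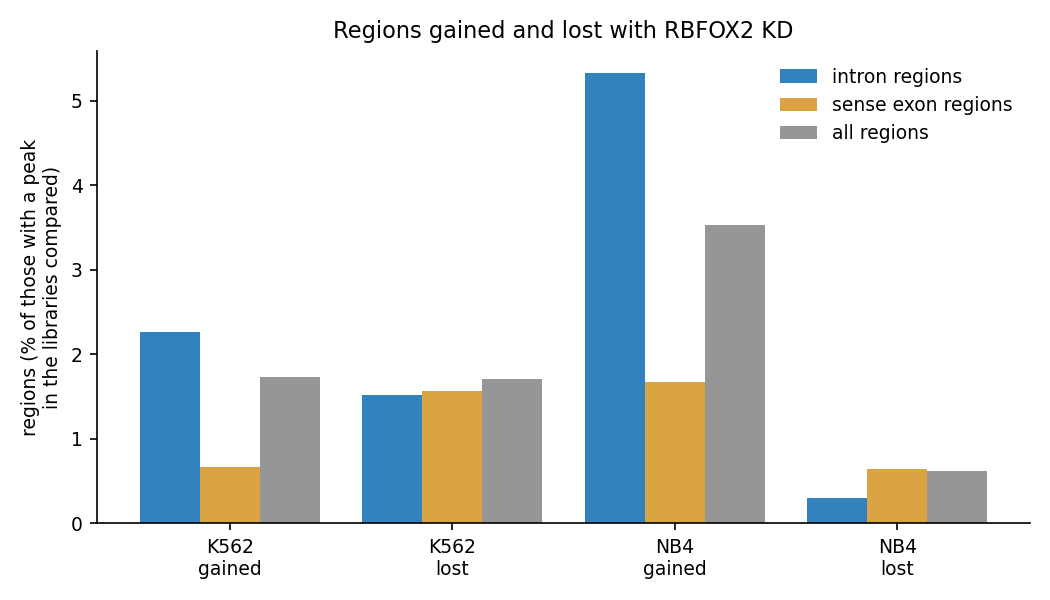
Share of regions (%) that were gained or lost on RBFOX2 KD in K562 (2 against 2 libraries) and NB4 (3 against 3), for intron regions, sense exon regions and all merged regions. In NB4 5.33% of intron regions, 1.68% of exon regions and 3.53% of all regions were gained, and with equal list size 2.998% of intron regions and 1.82% of all regions.

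Gained and lost intron regions differed in place. Lost regions of K562 lay within 500 bases of a splice site in 38.0% of cases and gained regions in 10.9%, beside 23.3% of all intron regions with a peak in these libraries. Their median host introns were 8963.5 and 23397 bases long, and their median GC contents 48.0 and 39.7%. In NB4 the same order held, with 27.7% of lost and 9.62% of gained regions near a splice site beside 16.0% of all, and GC contents of 55.6 and 39.7%. The 2 K562 Control libraries differed in the same measure, with 18.8% of intron peaks within 500 bases of a splice site in Control 1 and 26.4% in Control 2. The part of that spread in the lost K562 regions was not tested. All values of gained and lost regions are descriptions of the called regions.

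The 5 lost K562 regions with the highest rank are shown by 2 examples, chosen as the top 2, because 4 of the 5 lay within 100 bases of an acceptor. PPM1F encodes a protein phosphatase and AHCTF1 the nucleoporin ELYS.
PPM1F intron 2 (chr22:21939642-21939742, minus strand): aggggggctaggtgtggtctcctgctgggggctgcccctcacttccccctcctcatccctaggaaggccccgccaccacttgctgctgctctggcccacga
AHCTF1 intron 34 (chr1:246842789-246842889, minus strand): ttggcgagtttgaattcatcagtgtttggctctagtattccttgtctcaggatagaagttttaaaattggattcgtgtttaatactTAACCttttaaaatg
The PPM1F summit lay 11 bases before the acceptor, and its fold was 8.37 and 8.52 in K562 WT and 8.04 and 10.2 in K562 Control, with no peak in K562 RBFOX2 KD. Outside K562 it was called in NB4 RBFOX2 KD 3 at 9.52. The AHCTF1 summit lay 62 bases before the acceptor, with folds of 9.39 and 9.58 in K562 Control and no peak in any other library. GTPBP1, which encodes a GTPase, lay 11 bases from its acceptor with folds of 7.58 and 13.1 in Control. It was also called at 5.77 and 10.6 in K562 WT, 7.78 in NB4 Control 2 and 6.51, 2.52 and 6.95 in NB4 RBFOX2 KD. MYO9B, an unconventional myosin, lay 21 bases from its acceptor with folds of 5.40 and 11.5 and no peak elsewhere. The fifth, in APOBEC3B, a cytidine deaminase, lay 65 bases after its donor, with folds of 8.71 and 9.52 in Control and 3.31 and 4.23 in WT.

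Gained K562 regions were led by FAF1, NFIC, SLC4A4, a gene without a symbol (ENSG00000239920) and RDH10. FAF1 encodes a ubiquitin-binding factor in apoptosis and NFIC a transcription factor, and the NFIC window is shown.
NFIC intron 8 (chr19:3453339-3453439, plus strand): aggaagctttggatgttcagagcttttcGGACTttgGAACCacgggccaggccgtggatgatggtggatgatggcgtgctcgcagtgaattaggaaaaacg
The FAF1 region had folds of 3.53 and 5.17 in K562 RBFOX2 KD and none in K562 Control, but K562 WT had it at 3.45 and 3.22 and 7 further libraries of HepG2 and NB4 carried it too. NFIC had 7.20 and 8.04 in KD, 6.21 in K562 WT 2 and 3.74 in NB4 Control 2. SLC4A4, a bicarbonate cotransporter, had 7.67 and 7.21 in KD and no peak elsewhere, and RDH10, a retinol dehydrogenase, had 6.17 and 8.40.

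In NB4 the gained list was led by PER2, a core clock repressor, C7orf50, PHF14, NFX1 and ANLN. PER2 and C7orf50 are shown as the top 2.
PER2 intron 4 (chr2:238273152-238273252, minus strand): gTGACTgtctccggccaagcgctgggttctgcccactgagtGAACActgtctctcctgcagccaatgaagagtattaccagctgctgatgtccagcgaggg
C7orf50 intron 2 (chr7:1114077-1114177, minus strand): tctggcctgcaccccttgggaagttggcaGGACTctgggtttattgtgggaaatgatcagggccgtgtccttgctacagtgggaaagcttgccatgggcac
The PER2 summit lay 10 bases before the acceptor, and its folds were 6.97, 8.03 and 8.22 in NB4 RBFOX2 KD with no peak in NB4 Control. It also had a peak at 5.07 in HepG2 WT 2, 4.37 in K562 WT 2, 7.47 in K562 Control 2 and 4.45 in K562 RBFOX2 KD 2. The PHF14 summit lay 22 bases before its acceptor and was called in all 6 K562 libraries as well. C7orf50 had folds of 6.24, 6.07 and 6.26, NFX1 4.83, 6.70 and 5.20, and ANLN, an actin-binding protein of cytokinesis, 3.88, 3.51 and 4.52, each without a peak in any other library.
Lost NB4 regions were led by MRPL23, which encodes a mitochondrial ribosomal protein, SCNN1D, a sodium channel subunit, EBF3, ELFN1 and FAM120A.
MRPL23 intron 5 (chr11:1972787-1972887, plus strand): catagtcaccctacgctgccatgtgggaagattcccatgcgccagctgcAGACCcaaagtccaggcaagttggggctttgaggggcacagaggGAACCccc
SCNN1D intron 5 (chr1:1284600-1284700, plus strand): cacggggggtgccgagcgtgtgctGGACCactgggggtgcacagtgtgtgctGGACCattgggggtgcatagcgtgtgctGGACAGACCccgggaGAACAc
MRPL23 had folds of 11.5, 9.09 and 7.83 in NB4 Control and none in NB4 RBFOX2 KD, and was also called at 7.05 and 7.36 in K562 WT. SCNN1D had 8.55, 7.06 and 6.65 in NB4 Control. The SCNN1D region was called in both HepG2 and all 6 K562 libraries, at 3.69 to 15.9.

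The lines were compared in the same 10 properties. NB4 libraries were compared with K562 libraries within Control and within KD, where 100 arrangements give a smallest p of 0.01. 7 of 10 properties passed, each with an adjusted exact permutation p of 0.0143. With a replicate block each of the 7 had an exact permutation p of 0.125, the smallest its sign flips allow. K562 WT, which is not in this comparison, did not lie beyond all NB4 libraries on the side of K562 Control and KD in first-intron share, rank and UGCAUG excess. First introns held 24.8% of intron peaks in NB4 and 23.0% in K562 with a hairpin, but 26.0 and 25.7% in K562 WT. Intron peaks of NB4 were narrower (217 against 293 bases), lower in rank (percentile 41.1 against 44.6, with K562 WT at 41.5 and 41.6) and further toward the donor (0.459 against 0.502 of the intron length). The GGACU excess was 9.90, 9.53 and 9.11 percentage points in NB4 Control and 8.15, 7.67 and 8.69 in NB4 RBFOX2 KD, against 18.2 and 14.05 in K562 Control and 18.0 and 18.1 in K562 RBFOX2 KD, so all NB4 libraries lay below all 4 K562 ones. The UGCAUG excess was 0.068 in NB4 and 0.836 in K562 with a hairpin, with K562 WT at 0.187 and 0.662, inside and above the NB4 range of -0.261 to 0.466, and the AGAUG excess 6.25 and 3.01. The intron share itself was 4.01 percentage points higher in NB4 and did not pass (exact p = 0.07).

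GC content and repeats differed between NB4 and K562 with a hairpin. Median GC at intron summits was 47.7% in NB4 and 42.4% in K562 with a hairpin (exact permutation p = 0.01). A summit window of 151 bases was called repetitive when it held fewer than 90 distinct words of 5 bases among its 147, a cut-off set after sequences had been seen. Repetitive windows made up 11.9, 9.48 and 9.46% of intron summits in NB4 Control, 6.36, 6.67 and 6.98% in NB4 RBFOX2 KD, 0.924 to 0.991% in K562 Control and KD, 4.86 and 5.00% in K562 WT and 6.97 and 5.67% in HepG2 WT. Sense exon summits were at 0.401 to 1.21% throughout. The difference between NB4 and K562 with a hairpin was 7.52 percentage points (exact permutation p = 0.01). K562 WT thus lay near HepG2 WT and apart from the K562 lines with a hairpin. Whether the repeats account for the motif differences was not tested.

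**Figure D4:**
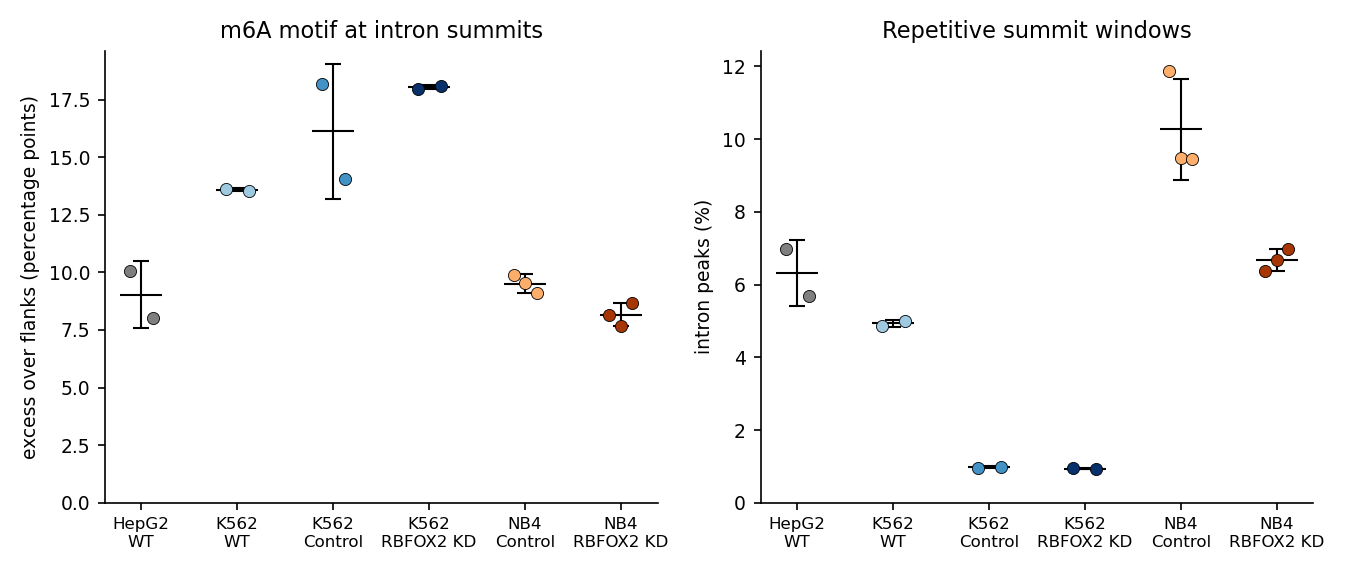
Left, the excess of GGACU in intron summit windows over flanking windows (percentage points), and right, repetitive intron summit windows (%), by group. Points are libraries and bars the group mean with the SD. GGACU excess is lower in NB4 (7.67 to 9.90) than in K562 with a hairpin (14.05 to 18.2), and repetitive windows lie below 1% only in K562 Control and K562 RBFOX2 KD.

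Between the wild-type lines, K562 WT had an intron share 1.14 percentage points above HepG2 WT (0.296 to 1.98 without 1 library, and -1.71 with equal list size), a first-intron share of 26.0 and 25.7% against 23.7 and 24.0%, and a GGACU excess of 13.6 and 13.5 against 10.1 and 8.01. Groups did not overlap in these 3, but 2 against 2 libraries cannot go below an exact p of 0.333. 4832 of 12946 intron regions were in both K562 WT and neither HepG2 WT library (37.3%), against 37.8% of all regions, and 1351 the other way (10.4%), against 10.3% of all regions. Sense exon regions gave 24.2% and 10.2%. Counts are lower with equal list size, where 1644 intron regions were in K562 WT and not HepG2 WT.

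The non-targeting hairpin line also differed from its parent. K562 Control had a first-intron share of 22.9 and 23.4% against 26.0 and 25.7% in K562 WT, and an intron share 0.603 percentage points higher (exact p = 0.333 for each). 1022 of 13511 intron regions were in both Control and neither WT library (7.56%), against 5.28% of all regions, and 2204 were in both WT and neither Control library (16.3%), against 15.0% of all regions. Recovered depth was 25.6 and 24.9 M reads in K562 WT and 14.8 and 19.5 M reads in K562 Control. Of the 2204 regions, 16.1% had repetitive windows, against 0.587% of the 1022.

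Across all 14 libraries intron regions recurred less than exon regions. 862 of 25478 intron regions had a peak in all 14 libraries (3.38%), against 8.92% of all regions and 23.2% of sense exon regions, and 6866 were seen in 1 library (26.9%), against 16.0% of exon regions. Taken per library, 81.7% of its intron regions also had a peak in another library of the group, against 91.4% of its sense exon regions. Of these intron and exon regions, 32.6 and 67.1% had a peak in at least 10 libraries. Each was lower for introns in 14 of 14 libraries (exact sign-flip permutation p = 0.000122). The regions found in all 14 libraries lay in first introns in 20.2% of cases, against 26.4% of those found in 1 library. Their windows held GGACU in 29.8 against 17.1%, the strongest peak was 679.5 against 160 bases wide, and its fold was 14.5 against 3.90. Strength and width help a region to be found again, so these are descriptions.

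**Figure D5:**
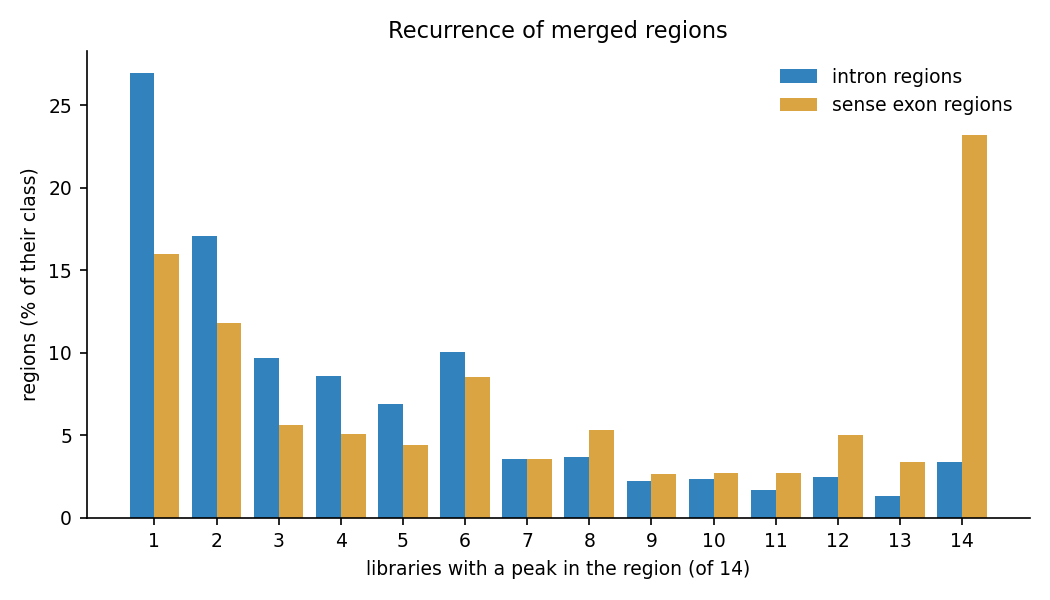
Share of intron regions and of sense exon regions (% of their class) by the number of libraries, from 1 to 14, with a peak in the region. Intron regions pile up at 1 library (26.9%) and exon regions at 14 (23.2%, against 3.38% of intron regions).

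The 862 regions common to all libraries lay in 630 genes, and 143 of these genes held at least 2. RPTOR, the Raptor subunit of mTORC1, held the most with 10 (chr17:80544819-80966371), and had 15 and 17 intron peaks in HepG2 WT, 23 and 26 in K562 WT, 29 and 30 in K562 Control, 27 and 26 in K562 RBFOX2 KD, 26 in each NB4 Control and 39, 31 and 36 in NB4 RBFOX2 KD. COMMD10, of the COMMD trafficking proteins, held 8 with 14 to 30 peaks per library. ERICH1 and PDE3B, a cyclic nucleotide phosphodiesterase, held 7 each with 12 to 26 and 12 to 35 peaks. CCDC200, SPIDR, a scaffold of homologous recombination, and HDAC4, a class IIa histone deacetylase, held 6 each. HDAC4 had 25 to 34 peaks in NB4 libraries and 7 to 14 elsewhere. SMYD3, a lysine methyltransferase, and WDR27 held 5 each, and ADK, adenosine kinase, held 4 with 8 to 17 peaks.

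Regions of a single line were spread over many genes. 938 intron regions were in both HepG2 and no other library (3.68%), against 4.60% of all regions, 1082 in all 6 K562 and no other (4.25%), against 6.33%, and 850 in all 6 NB4 and no other (3.34%), against 3.38%. They lay in 444, 629 and 468 genes, and the 8 leading genes of each line held 170, 107 and 124 of them (18.1, 9.89 and 14.6%). In HepG2 the leading genes were PTPRN2 with 59 such regions, EDA, the ectodysplasin ligand, with 25, SHANK2, a synaptic scaffold, with 23, MAGI2, a junction scaffold, with 20, PPP1R9A with 13, L3MBTL4 with 11, FRAS1 with 10 and MTAP with 9. Of these 8 genes, 7 had no intron peak in any K562 or NB4 library. EDA had 27 and 29 intron peaks in the HepG2 libraries and SHANK2 26 and 32. PTPRN2 was the exception.

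PTPRN2 (chr7:157539056-158587823, minus strand) carried 68 and 78 intron peaks in HepG2, 0 in all 6 K562 libraries and 47 to 54 in NB4, so it led the lists of both HepG2 and NB4. The sites were different ones. Of its 133 intron regions, 80 had a peak in a HepG2 library and 59 in an NB4 library, and 6 had both. HepG2 regions lay toward the 5' part of the gene and NB4 regions toward the 3' part: introns 1 to 11 held 60 of the HepG2 and 2 of the NB4 regions, and introns 13 to 22 held 2 of the HepG2 and 52 of the NB4 regions, while intron 12 held 18 and 5. This split within PTPRN2 was looked for after the gene had come up in both lists. 26 of the 133 windows were repetitive.

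In K562 the leading genes were FGF13, an intracellular fibroblast growth factor homologue, and HTR1F, a serotonin receptor, with 18 regions each, PTH2R, a parathyroid hormone receptor, with 17, ADGRV1, a very large adhesion receptor, with 13, IMMP2L with 11, and CARD18, ENSG00000239920 and GPC5, a glypican, with 10 each. FGF13 had 31 and 36 intron peaks in K562 WT, 28 and 28 in Control and 30 and 31 in RBFOX2 KD, and none in HepG2 or NB4. HTR1F had 32 and 37, 24 and 29, and 29 and 27, again none elsewhere. IMMP2L had peaks in all lines, 26 to 38 in K562 and 9 to 19 elsewhere.

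In NB4 PTPRN2 led with 33 regions, followed by COL23A1, a transmembrane collagen, with 22, INPP5A, an inositol phosphatase, with 14, LRMDA and PDE9A, a cyclic GMP phosphodiesterase, with 12 each, P2RY8, a purinergic-type receptor of haematopoietic cells, and TRPM2, a cation channel of myeloid cells, with 11 each, and AHRR, the repressor of the aryl hydrocarbon receptor, with 9. COL23A1 had 35, 46 and 38 intron peaks in NB4 Control and 49, 46 and 49 in NB4 RBFOX2 KD, and 0 or 1 elsewhere. TRPM2 had 14, 17 and 13 and then 15, 17 and 16, with none in other lines. P2RY8 lies in the pseudoautosomal region, where X and Y copies share reads, and had 13 to 21 peaks in NB4 alone. LRMDA had 27, 29 and 43 in Control, 57, 57 and 55 in KD, and 18 in each HepG2 library. Its KD libraries lay above all Control libraries, as they did in the count of all intron peaks. A peak needs both a transcript and a mark, and without input the level of the precursor RNA and the level of methylation cannot be told apart here.

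Genes of known pathways were looked up from fixed lists. Over all 18994 protein-coding genes with introns, 30.5% had an intron region seen in at least 2 libraries. The counts were 5 of 9 m6A writers, 10 of 13 readers and erasers, 7 of 24 splicing regulators, 8 of 11 genes of the Polycomb complex PRC2, 13 of 23 erythroid and megakaryocyte genes, 13 of 22 myeloid genes, 4 of 23 hepatocyte genes, 18 of 22 leukaemia fusion genes and oncogenes and 15 of 20 termination and polyadenylation factors. Gene length and expression differ between the lists, so no list is called apart from the rest.

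Among the m6A machinery, YTHDC2 and YTHDF1, both readers, FTO, a demethylase, and IGF2BP3 each had a region in all 14 libraries. These were 4 of 32 regions of readers and erasers (12.5%), against 4.63% of all intron regions seen in at least 2 libraries. FTO had 11 intron regions seen in at least 2 libraries, with 3 to 8 peaks per library. YTHDC1, the nuclear reader, had 2 regions seen in at least 2 libraries, and 1 was gained in NB4 RBFOX2 KD, where the gene had 3, 2 and 3 peaks against 1 in each NB4 Control. It was the only gained region among the 32 of readers and erasers (3.13%, against 4.58% of all). RBM15, an adaptor of the writer complex, had 1 region, found in the 6 K562 libraries alone. METTL3 had 1 or 2 peaks in each K562 library. Of 40 regions of splicing regulators, 4 were gained in NB4, against 4.58% of all 18612 intron regions seen in at least 2 libraries. QKI held 2 of the 4 and CELF2 the other 2. CELF2 had 4, 9 and 7 peaks in NB4 Control and 11, 9 and 13 in NB4 RBFOX2 KD. MBNL1 had 13 regions, and its counts in NB4 were 3, 2 and 6 and then 10, 11 and 4, which overlap. In PRC2, JARID2 had 4 regions, EED 2 and SUZ12 1, and none of the 18 regions of the list was gained or lost in either line. Of all intron regions seen in at least 2 libraries, 1.33% were gained and 0.892% lost in K562. In NB4 the shares were 4.58 and 0.253%, so a list of this size would hold few calls.

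Each list of cell identity held regions of its own line. Of 53 erythroid and megakaryocyte regions 10 were found in K562 alone (18.9%, against 5.81% of all intron regions seen in at least 2 libraries), in ANK1, KLF1, GFI1B and RHAG. ANK1, the erythrocyte ankyrin, had 12 and 10 peaks in K562 WT, 9 and 10 in Control and 11 and 10 in RBFOX2 KD, and none elsewhere. GATA1, the erythroid master factor, had 7 and 5 intron peaks in K562 WT, 1 and 1 in K562 Control and 1 and 0 in K562 RBFOX2 KD, so WT lay above both hairpin groups, and 4 of its regions were in WT and not Control. The count of all intron peaks was also higher in K562 WT, at 9975 and 9651, against 8489 and 8876 in Control and 8996 and 8333 in KD. Of the 53 regions, 15 were in K562 WT and not Control (28.3%, against 11.8% of all intron regions seen in at least 2 libraries). In the other direction there were 3 (5.66%, against 5.49%). Other genes of the list had more peaks in NB4. BCL11A, a repressor of fetal globin, had 3 to 5 peaks in each NB4 library and none in K562, and ZFPM1, the cofactor of GATA1, had 9 to 16 in NB4 and 2 to 10 in K562. Of 42 myeloid regions 9 were found in NB4 alone (21.4%, against 4.57% of all). SPI1, which encodes PU.1, had 4, 5 and 4 peaks in NB4 Control and 6, 7 and 4 in NB4 RBFOX2 KD, and RUNX1 had 9, 11 and 13 and then 20, 20 and 15. The RUNX1 groups did not overlap, and neither did the counts of all intron peaks in these libraries, so RUNX1 is not set apart. 3 of the 42 were gained in NB4 (7.14%, against 4.58% of all), 2 in RUNX1 and 1 in SPI1. Of 6 hepatocyte regions 5 were found in HepG2 alone (against 5.04% of all), including 2 in HNF4A and 1 in FOXA2.

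Of 103 regions of leukaemia genes, 4 were gained in NB4 (3.88%, against 4.58% of all intron regions seen in at least 2 libraries) and none lost. The 4 lay in MLLT3, ETV6, DOT1L and JAK2. ETV6 had 9, 8 and 13 peaks in NB4 Control and 15, 17 and 15 in RBFOX2 KD, 7 and 7 in K562 WT and 0 or 1 in K562 with a hairpin. In K562 2 were gained (1.94%, against 1.33%), in ETV6 and CUX1, and 4 lost (3.88%, against 0.892%), in BCR, KMT2A, MEF2C and JAK2. BCR and ABL1, joined by the K562 translocation, had 4 and 7 regions. MEF2C, a transcription factor of the leukaemia list, had 5 or 6 peaks in every K562 library and none in NB4 or HepG2. In NB4, where intron peaks were more numerous overall after depletion, counts above Control in a single gene are not set apart from that general difference.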

How the data were processed

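The 14 IP libraries of the series each came with 1 peak list, and the 14 input libraries are not analysed here. The study's methods name Trimmomatic 0.39 for trimming, HISAT2 2.1.0 for alignment to hg38 and SAMtools 1.9 for splitting alignments by strand, and state that peaks were called per library and strand with MACS2 without a model, with reads extended to 150 bases. Replicates were not pooled, and whether the input served as the background was not stated. The deposited lists give, for each summit, a score, the fold over the local background as a ratio, and p-value and q-value as -log10, all made by the authors with MACS2. The smallest -log10 q was 2.00. The score was not used beyond checking the columns, and the other values served to rank peaks within a list and to recover depth. The lists hold no read counts, so presence of peaks was compared and not methylation levels. A list called with more reads can hold weaker peaks, and intron peaks ranked low in every list, so depth can affect the intron share.

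Summits were placed on GENCODE 44, while the authors aligned with an earlier release. 0 peaks ran past the end of a chromosome. Canonical introns were preferred when a summit lay in several. Windows of 151 bases at the summit were searched on the strand of the peak for the motifs GGACU and UGCAUG, for AGAUG and for DRACH, and compared with windows 300 bases to either side. Repetitive windows were called after values had been seen. Groups were compared over libraries with exact permutation tests, two-sided, stratified by line or genotype where stated, with Benjamini-Hochberg adjustment over 10 properties within each contrast, and intron with exon peaks by sign flips within the 14 libraries. The threshold on p was 0.05. Libraries with the same replicate number showed no shared deviations, which does not exclude that they were paired. The regions and genes named are the 10 genes with the most intron regions in all 14 libraries, the 8 with the most regions of a single line, the 5 gained and 5 lost regions of highest mean rank per line, the 6 regions in all 14 libraries and 3 per line of highest mean rank, and members of gene lists. The choice of the 6 regions in all 14 libraries and the 3 per line left out chromosome 8. Some regions and genes that these rules name are not reported here. Members, lists and tests were chosen with earlier results of these data known. Alternatives were a wider promoter window, no exon base in the peak, a -log10 q of at least 5, the shortest intron of any transcript, lists of equal size, matched depth, shares outside promoters, leaving out each library, a replicate block, and, added after the data had been seen, GC standardisation and densities without the last 100 bases of introns. Depth was recovered from the fold and p-value, and recovery and tests were checked on simulated data. The software was scipy 1.17.1, numpy 2.4.6, pysam 0.24.0, pandas 2.3.3 and matplotlib 3.10.9 under Python 3.11.15.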

Additional observations from a re-analysis of the deposited data

Results flagged for a closer look

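The RBFOX2 KD change differed between K562 and NB4 at an unadjusted exact permutation p of 0.05 or lower in 3 measures of intron peaks, and none passed after adjustment over the measures (adjusted exact p = 0.2 each). The log2 number of intron peaks changed by -0.644 in K562 relative to NB4 (exact p = 0.05), the GGACU excess at summits by 3.26 percentage points (exact p = 0.05), and the median width by -26.5 bases (exact p = 0.0333). In NB4 the number was higher in 3 of 3 KD libraries than in any Control library, the GGACU excess lower in 3 of 3 and the width higher in 3 of 3, while K562 Control and KD overlapped in number and width. In K562 the GGACU excess was 18.2 and 14.05 in Control and 18.0 and 18.1 in KD. Depth and GC content differed between the NB4 groups as given above, and their part in these differences was not tested.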

How the results depend on the processing

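The NB4 differences between RBFOX2 KD and Control in the intron share and in the log2 number of intron peaks kept their direction under all alternatives run, the log2 number at 0.31 with equal list size against 0.64. The share over both lines, 3.60 percentage points, lost the threshold when GC was standardised (2.54, exact p = 0.0833) and with a replicate block (3.60, exact p = 0.0625, the smallest its sign flips allow), and ran from 3.02 to 4.35 without 1 library at a time. With the block the shares of sense exon and promoter peaks also went to p = 0.0625 and the 7 properties of NB4 minus K562 to p = 0.125, each the smallest the exact sign flips allow, so it could keep no call. Same-numbered libraries correlated at -0.079 to 0.003 in their deviations, so no shared deviation was seen. With 2 libraries a group, same and different numbers give opposite correlations by construction. This check therefore cannot exclude that libraries were paired or shared a batch. In K562 the share turned to -0.116 with GC standardised and ran from 0.263 to 0.365 without 1 library. The K562 log2 number, near 0, turned to 0.013 with the wider promoter window, 0.079 with no exon base and 0.029 with equal list size, and ran from -0.059 to 0.052 without 1 library. The log2 number over both lines passed at 0.34 with the wider promoter window, 0.38 with no exon base, 0.17 with equal list size and 0.32 with matched depth, and ran from 0.26 to 0.38 without 1 library. K562 WT minus HepG2 WT in share turned to -1.71 with equal list size and ran from 0.296 to 1.98 without 1 library. NB4 minus K562 in share passed at 4.68 with no exon base, 3.61 with equal list size, 5.78 outside promoter windows and 6.20 with GC standardised, and ran from 3.26 to 4.59 without 1 library.

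Properties that turned over both lines on KD were the first-intron share (0.064, wider promoter window) and, with no exon base, the relative position (0.014), the GGACU excess (-0.190) and the UGCAUG excess (-0.043). Those of K562 WT minus HepG2 WT that turned were the UGCAUG excess (-0.024, wider promoter window), the first-intron share (-0.794), the log2 distance to an exon (0.058) and the width (5.5 bases), all 3 with no exon base, and with equal list size the AGAUG excess (0.136) and the width (125.0 bases). With equal list size, intron regions gained in NB4 numbered 384, lost in NB4 94, K562 WT and not HepG2 WT 1644, K562 alone 482 and in all 14 libraries 524. Without 1 library, counts ran from 520 to 1037 gained and 285 to 1559 lost in K562, 985 to 1688 gained and 69 to 122 lost in NB4, 1428 to 2499 for HepG2 WT and not K562 WT, and 1247 to 2481 for K562 Control and not K562 WT, where fewer libraries have to match by construction. The causes of the other changes were not tested. With 2 or 3 libraries a group, tests within a line cannot pass the threshold.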

Other observations

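The intron share of peaks depended on the GC content of the summit in every group. Among peaks with under 40% GC the share was 36.8% in HepG2 WT, 36.2% in K562 WT, 35.3% in K562 Control, 35.1% in K562 RBFOX2 KD, 36.8% in NB4 Control and 46.0% in NB4 RBFOX2 KD, as group means. Among peaks with at least 60% GC it was 8.35% in HepG2 WT, 9.63% in K562 WT, 11.6% in K562 Control, 11.2% in K562 RBFOX2 KD, 13.9% in NB4 Control and 15.2% in NB4 RBFOX2 KD. Between NB4 Control and NB4 RBFOX2 KD the difference was largest, in percentage points, in the class with the lowest GC, which made up 9.15 to 16.1% of peaks in NB4 Control libraries and 17.9 to 21.3% in NB4 RBFOX2 KD libraries.

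Repetitive summit windows were unequal among regions of a single line. They were found in 153 of 850 intron regions of NB4 alone, in 98 of 938 of HepG2 alone, in 6 of 1082 of K562 alone and in 27 of 862 found in all 14 libraries. Among regions called in NB4, 9 of 47 lost and 12 of 852 gained intron regions had such a window.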
